A study of Mus musculus with 38 samples.

Results

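The loss of Foxa1 and Foxa2 together was compared with the loss of Foxa1 alone in organoids of mouse lung adenocarcinoma, gel-embedded cultures of tumour cells. For each gene, the change with 4-hydroxytamoxifen (4-OHT) in organoids with both genes floxed was set against the same change in organoids with Foxa1 floxed. Bulk RNA sequencing gave 22 of the 38 libraries of the series for this comparison, chosen by genotype and by the absence of a hairpin. Double-floxed organoids gave 5 libraries with 4-OHT and 5 with vehicle. Replicates 1 and 4 came from line 1027B, replicates 2 and 5 from line 1027D, and replicate 3 from line 1292B. For Foxa1-floxed organoids there were 6 libraries with 4-OHT and 6 with vehicle, from lines 1552A, 1552B and 1552C with 2 libraries per treatment each.

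Each line came from 1 digested tumour, from mice of mixed 129/B6 strain, and was kept in Matrigel with L-WRN conditioned medium. Both genotypes carried the alleles KrasFSF-G12D, p53frt and Rosa-FSF-CreERT2 beside the floxed genes, so the vehicle controls hold them too. Rosa-FSF-CreERT2 gives a Cre recombinase that 4-OHT activates, and Cre excises floxed sequence. The dose was 2 uM 4-OHT for 72 hours, with ethanol as the vehicle, and each line supplied its own vehicle control. The sources used here do not state how long after treatment the RNA was taken. All treated lines of the series carried floxed alleles, so within a genotype the loss of the floxed genes and any effect of 4-OHT or Cre itself cannot be told apart. The genotype also coincided with the sequencing run and with the deposited table (run 19659 for Foxa1-floxed lines, runs 17699 and 17992 for double-floxed lines), whereas the 4-OHT and vehicle libraries of a line shared their runs. The labels do not say whether lines with a common number (1552A, 1552B and 1552C, or 1027B and 1027D) came from the same mouse.

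Foxa1 and Foxa2 are forkhead transcription factors that can bind their sites in closed chromatin and make nearby regulatory sequence accessible to other factors. In the developing lung, liver and gut each can carry much of the other's function, since they bind closely similar sites. In lung epithelium they act with Nkx2-1, the lung lineage factor, on genes of alveolar type 2 cells, which make surfactant. The comparison asks which genes Foxa2 supports once Foxa1 is lost.

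Library totals ran from 18.2 to 33.2 M counts (M, mega), and mitochondrial transcripts took 1.09% to 3.73% of them. The 6 markers of the labelled tumour epithelium (Epcam, Cdh1, Krt8, Krt18, Krt19 and Nkx2-1) together stood at 5305 to 16750 CPM, which are counts scaled to a common library size with edgeR's TMM factors. On the same scale, summed markers stood at up to 5.23 CPM for fibroblasts, 7.43 CPM for endothelial cells and 48.9 CPM for leukocytes. The CPM of single genes below were instead scaled to a common library size with edgeR's TMM factors. Among the leukocyte markers, Lyz2 also belongs to the list of alveolar type 2 genes below. In double-floxed vehicle libraries Lyz2 reached 27.7 CPM and Cd68 18.5 CPM, against 2.72 CPM for Ptprc. In bulk libraries, fewer cells of a type and less RNA per cell cannot be told apart.

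The targeted genes were looked at first. Foxa2 (ENSMUSG00000037025, chromosome 2, 148042877 to 148046969 on GRCm38) stood at 6.16, 6.04, 5.27, 2.66 and 4.43 CPM in double-floxed 4-OHT libraries 1 to 5, against 90.9, 109, 60.7, 190.3 and 119.6 CPM with vehicle. In Foxa1-floxed organoids its lowest, median and highest values were 92.4, 141 and 172 CPM with 4-OHT and 67.7, 154 and 171 CPM with vehicle. All 5 double-floxed 4-OHT libraries lay below every other library, and the Foxa1-floxed groups overlapped. The log2 change was -4.37 ± 0.81 in double-floxed lines and 0.13 ± 0.37 in Foxa1-floxed lines (SD, n = 3 lines each), a fitted difference of -4.54 (edgeR quasi-likelihood test, Benjamini-Hochberg adjusted p = 0.00858).

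Foxa1 (ENSMUSG00000035451, chromosome 12, 57540628 to 57546916) fell in double-floxed organoids, to 13.8, 12.9, 18.2, 11.7 and 8.88 CPM with 4-OHT, against 17.5, 28.8, 87.8, 67.4 and 37.9 CPM with vehicle. Its lowest, median and highest values in Foxa1-floxed organoids were 13.5, 14.8 and 17.1 CPM with 4-OHT and 40.9, 56.4 and 79.5 CPM with vehicle. The Foxa1-floxed groups did not overlap, and double-floxed vehicle replicate 1 lay within the range of the 4-OHT libraries. The change of Foxa1 was -1.95 ± 0.28 in double-floxed lines and -1.91 ± 0.39 in Foxa1-floxed lines (log2, SD, n = 3 lines each), with a fitted difference of -0.04 that did not pass (edgeR adjusted p = 0.962). A p that misses the threshold does not show that changes are alike. These are counts over whole genes, so excision itself was not measured. The related factor Foxa3 differed by -1.83 (log2, edgeR adjusted p = 0.153) and Nkx2-1 by 0.20 (edgeR adjusted p = 0.743), and neither passed.

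The difference between the 2 genotypes' changes was tested with edgeR on counts summed per line and treatment, with line as the block. It passed an adjusted p of 0.05 for 226 of 17506 genes (1.29%). Of these, 159 were lower (0.908%) and 67 higher (0.383%) in the double-floxed than in the Foxa1-floxed change. An unadjusted p under 0.05 was reached by 3067 genes (17.5%; 8.64% higher and 8.88% lower), DESeq2 called 1188 (6.79%; 3.12% higher and 3.66% lower), and the median difference over all genes was 0.01 on the log2 scale. In the same fit the double-floxed change itself passed for 2220 genes (12.7%), 1158 up (6.61%) and 1062 down (6.07%). The Foxa1-floxed change passed for 0 genes (0%), with 1035 at an unadjusted p under 0.05, and DESeq2 called 57 for it, against 3427 for the double-floxed change. Foxa1 itself was among the genes that did not pass there with edgeR, although its Foxa1-floxed groups did not overlap. With 3 lines per genotype, 4 residual degrees of freedom carry these tests, and without the line block no difference passed (495 at an unadjusted p under 0.05).

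**Figure D1:**
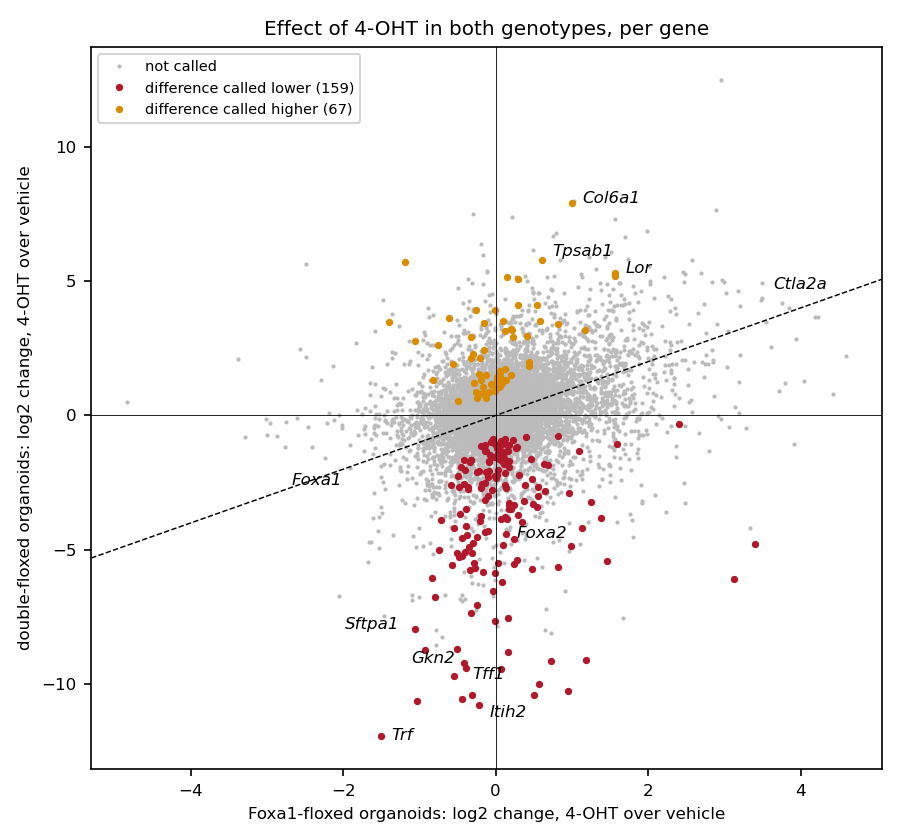
Log2 change with 4-OHT over vehicle in double-floxed organoids (vertical axis) and in Foxa1-floxed organoids (horizontal axis) for the 17506 genes tested. The dashed line marks equal changes, red points the 159 genes whose difference was called lower and orange points the 67 called higher. Most called genes lie far from 0 on the vertical axis and near 0 on the horizontal axis, whereas Foxa1 lies near the dashed line.

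Most of the 159 lower genes were expressed in Foxa1-floxed organoids with either treatment. Their median level was 3.40 CPM in double-floxed 4-OHT libraries and 29.7 CPM in double-floxed vehicle libraries. In Foxa1-floxed organoids it was 24.5 CPM with 4-OHT and 27.4 CPM with vehicle. The double-floxed change passed its own test for 158 of them, the exception being Stra6. The median log2 change over the 159 was -3.18 in double-floxed and -0.01 in Foxa1-floxed organoids. The Foxa1-floxed change was under 0.5 in size for 121 of them, of the same sign in 14 and of the opposite sign in 24. The selection itself favours opposite signs, because the Foxa1-floxed change enters the difference with a minus sign. Foxa1-floxed vehicle libraries averaged under 1 CPM for 14 of the 159.

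The 67 higher genes showed the mirror arrangement. Their median level was 71.1 CPM in double-floxed 4-OHT libraries and 17.7 CPM in double-floxed vehicle libraries, against 17.5 CPM with 4-OHT and 18.6 CPM with vehicle in Foxa1-floxed organoids. The double-floxed change passed for all 67, with a median of 1.71, and the median Foxa1-floxed change was 0.03 (log2). The sizes were smaller than among the lower genes, with a median difference of 1.62, against -3.44 for the lower genes. The 3 double-floxed lines lay entirely above the 3 Foxa1-floxed lines for 66 of the 67 higher genes and entirely below them for 149 of the 159 lower genes. Over all genes tested, 12.9% lay entirely above and 12% entirely below. The calls were made from these same line changes, so the selection itself favours lines that do not overlap.

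The genes with the largest differences in each direction, among those of at least 2 in mean log2 CPM whose lines did not overlap, comprised secreted stomach peptides, liver-type plasma proteins, a surfactant protein and heart-type myosins on the lower side. The higher side comprised a mast-cell-type protease, a cornified envelope protein, a glutathione transferase and several surface and matrix proteins. Their per-line changes are plotted together. Of the 39 named calls, 10 passed in each of the 28 fits that left out 1 library or 1 line (Foxa2, Foxp2, Gkn2, Gkn3, Itih2, Serpind1, Trf, Myh6, Myh7 and Pla2g1b). The other 29 missed the threshold in at least 1 of these fits, among them each named increase, with their direction kept. Tff1 missed it once, without double-floxed vehicle replicate 4 (edgeR adjusted p = 0.146), and Hc and R3hdml once, without line 1552C (0.065 for each).

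**Figure D2:**
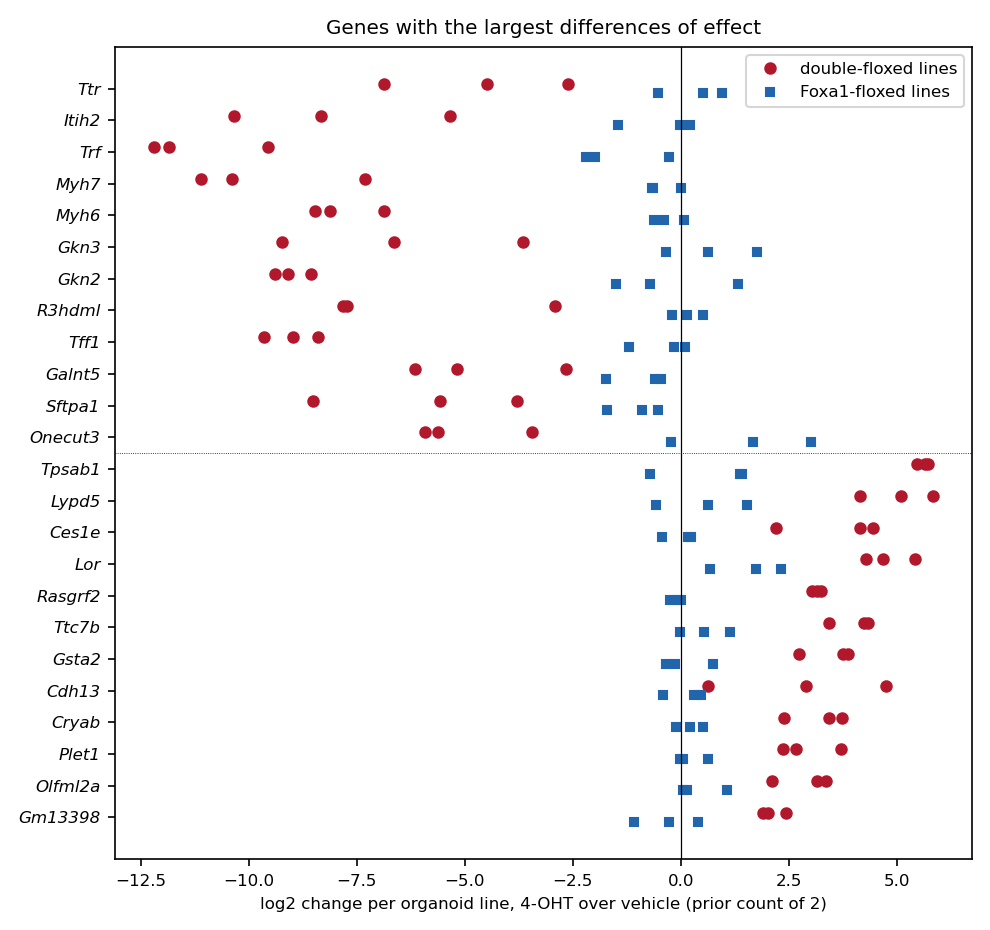
Log2 change with 4-OHT over vehicle in each of the 3 double-floxed lines (red circles) and each of the 3 Foxa1-floxed lines (blue squares), for 12 called genes in either direction, those with the largest difference at a mean log2 CPM of at least 2. Genes above the dotted line were called lower and genes below it higher. Only genes whose red and blue points do not overlap were eligible for the plot.

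Of 17 tested gastric epithelial genes, 10 fell in double-floxed organoids, against 6.07% of all genes. In Foxa1-floxed organoids no gene of any kind passed with edgeR, not even Foxa1, and DESeq2 called 57 of all genes. For the difference, 5 of the 17 were called lower (Tff1, Tff2, Gkn2, Gkn3 and Vsig1) and 0 higher, which is 29.4%, against 0.908% of all genes. DESeq2 called 10 lower and 0 higher, and with edgeR 12 reached an unadjusted p under 0.05 in the lower and 1 in the higher direction. The list's median difference was -4.83, with a median change of -2.53 in double-floxed and 0.09 in Foxa1-floxed organoids. Tff1 and Tff2 encode trefoil peptides that protect the mucosa, Gkn2 and Gkn3 encode gastrokines secreted by surface mucous cells, and Vsig1 is an adhesion protein of the gastric epithelium. Tff2 differed by -9.51 (edgeR adjusted p = 0.0343) and Vsig1 by -6.29 (edgeR adjusted p = 0.0207).

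Tff1 (ENSMUSG00000024032, chromosome 17, 31161395 to 31165277) stood at 0.0978, 0.0495, 1.68, 2.20 and 0.374 CPM in double-floxed 4-OHT libraries 1 to 5, against 10.1, 105, 871, 1624 and 95.7 CPM with vehicle. Foxa1-floxed libraries held a lowest, median and highest value of 208, 903 and 1554 CPM with 4-OHT and 725, 882 and 1448 CPM with vehicle. Every double-floxed 4-OHT library lay below every other library, although the vehicle libraries differed widely among themselves. The change was -9.01 ± 0.63 in double-floxed and -0.42 ± 0.68 in Foxa1-floxed lines (log2, SD, n = 3 lines each; fitted difference -8.78, edgeR adjusted p = 0.00155).

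Gkn2 (ENSMUSG00000030049, chromosome 6, 87373357 to 87379497) and Gkn3 (ENSMUSG00000030048, chromosome 6, 87383256 to 87388935) are neighbours on chromosome 6, and both fell in double-floxed organoids. Gkn2 stood at 0.0489, 0, 0, 1.01 and 0.948 CPM with 4-OHT, against 65.00, 471, 15.7, 483 and 409 CPM with vehicle. Its lowest, median and highest values in Foxa1-floxed organoids were 4.54, 56.1 and 259 CPM with 4-OHT and 2.01, 162 and 405 CPM with vehicle. The Foxa1-floxed groups overlapped and spread widely, with line 1552B lowest. The fitted difference was -8.99 for Gkn2 (edgeR adjusted p = 0.00932) and -9.84 for Gkn3 (edgeR adjusted p = 0.00836). Gkn3 stood at 0, 0, 0, 0.0916 and 0.0575 CPM in double-floxed 4-OHT libraries, against 50.7, 6.19, 0.479, 54.9 and 8.92 CPM with vehicle. In Foxa1-floxed organoids Gkn3 had a lowest, median and highest value of 0.322, 2.04 and 13.1 CPM with 4-OHT and 0.389, 0.85 and 7.10 CPM with vehicle. Other members did not pass, such as Muc5ac, a gastric mucin (-4.91, edgeR adjusted p = 0.102), and Anxa10 (-4.83, 0.212). The 3 members with a positive difference were Aqp5, Psca and Capn9, and none of them passed.

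The windows before the starts of both gastrokine genes are shown because each holds a 7-letter word of the forkhead type, given in capitals (TGTTTGC). The sequences are the 250 bases before each gene's RefSeq start, 5′ to 3′ on the gene's strand (GRCm38.p6; Gkn2 chr6:87373115-87373364, plus strand; Gkn3 chr6:87388936-87389185, minus strand).
Gkn2: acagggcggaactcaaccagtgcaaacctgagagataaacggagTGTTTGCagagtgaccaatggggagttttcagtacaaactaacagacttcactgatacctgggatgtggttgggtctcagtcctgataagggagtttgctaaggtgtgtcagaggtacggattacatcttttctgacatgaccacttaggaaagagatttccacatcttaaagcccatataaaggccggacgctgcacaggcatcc
Gkn3: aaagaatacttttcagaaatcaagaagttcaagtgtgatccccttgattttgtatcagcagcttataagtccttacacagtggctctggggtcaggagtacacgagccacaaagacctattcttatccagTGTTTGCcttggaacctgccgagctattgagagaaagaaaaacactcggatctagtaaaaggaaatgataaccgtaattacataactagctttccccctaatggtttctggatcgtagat
The word lay 206 bases before the start of Gkn2 and 120 bases before the start of Gkn3. Among all tested genes with a window, 3.29% held it.

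Liver-type plasma protein genes made up the other large set. Of 24 tested, 6 were called lower (Trf, Itih2, Serpind1, Rbp4, Hc and Ttr) and 0 higher, which is 25%, against 0.908% of all genes. DESeq2 called 11 lower and 0 higher, and with edgeR 16 reached an unadjusted p under 0.05 in the lower and 0 in the higher direction. Over the list, the median difference was -3.17, with medians of -2.75 in double-floxed and -0.02 in Foxa1-floxed organoids. Trf encodes the iron carrier transferrin, Rbp4 the retinol carrier, Ttr transthyretin, Serpind1 heparin cofactor II, Hc complement component 5 and Itih2 a heavy chain of the inter-alpha-trypsin inhibitors.

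Trf (ENSMUSG00000032554, chromosome 9, 103204001 to 103230444) stood at 0, 0.148, 0.28, 0.183 and 1.12 CPM in double-floxed 4-OHT libraries, against 866, 3397, 245, 256 and 4091 CPM with vehicle. Foxa1-floxed libraries had a lowest, median and highest value of 36.2, 311 and 999 CPM with 4-OHT and 309, 547 and 3372 CPM with vehicle. Trf was thus near 0 in each double-floxed 4-OHT library and at 36.2 CPM or more in each Foxa1-floxed 4-OHT library. The change was -11.20 ± 1.43 in double-floxed and -1.48 ± 1.07 in Foxa1-floxed lines (log2, SD, n = 3 lines each; fitted difference -10.43, edgeR adjusted p = 0.00482). The Foxa1-floxed change was negative in all 3 lines (-1.99 in 1552A, -2.20 in 1552B and -0.26 in 1552C).

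Itih2 (ENSMUSG00000037254, chromosome 2, 10094593 to 10131396) stood at 0, 0.0495, 0, 0.0458 and 0.0575 CPM in double-floxed 4-OHT libraries, against 9.76, 139, 1.65, 28.2 and 113 CPM with vehicle. In Foxa1-floxed organoids the lowest, median and highest values were 0.107, 39.6 and 58.8 CPM with 4-OHT and 0.357, 34.5 and 57.1 CPM with vehicle, with line 1552B under 1 CPM throughout. The double-floxed treatments did not overlap and the Foxa1-floxed ones did (fitted difference -10.54, edgeR adjusted p = 0.00279). Serpind1 differed by -9.14 (edgeR adjusted p = 0.00279), with 1 count in all double-floxed 4-OHT libraries together and 880 with vehicle (ratio 95% exact counting interval 2.68e-05 to 0.00591).

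Ttr (ENSMUSG00000061808, chromosome 18, 20665280 to 20674321) had 0 counts in the double-floxed 4-OHT libraries and 1.81, 8.43, 0.213, 0.286 and 1.90 CPM with vehicle, which is at least 87-fold lower with 4-OHT at a floor of 3 counts over the group. In Foxa1-floxed organoids it was expressed in line 1552C, with up to 62.9 CPM with 4-OHT and 42.6 CPM with vehicle, and was at or near 0 in lines 1552A and 1552B. The fitted difference was -10.55 (edgeR adjusted p = 0.0276). It was -10.59 without line 1552A, -10.31 without 1552B, -10.69 without 1552C and -9.85 without double-floxed 4-OHT replicate 5, and missed the threshold in each (edgeR adjusted p = 0.0521, 0.0856, 0.217 and 0.061). For a gene with a group at 0 counts the fitted value depends on the prior count and is no bound. Rbp4, the carrier that transthyretin binds in plasma, averaged 3.40 CPM in double-floxed 4-OHT and 147 CPM in double-floxed vehicle libraries. Rbp4 averaged 48.4 CPM with 4-OHT and 58.9 CPM with vehicle in Foxa1-floxed libraries (difference -5.00, edgeR adjusted p = 0.00836).

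**Figure D3:**
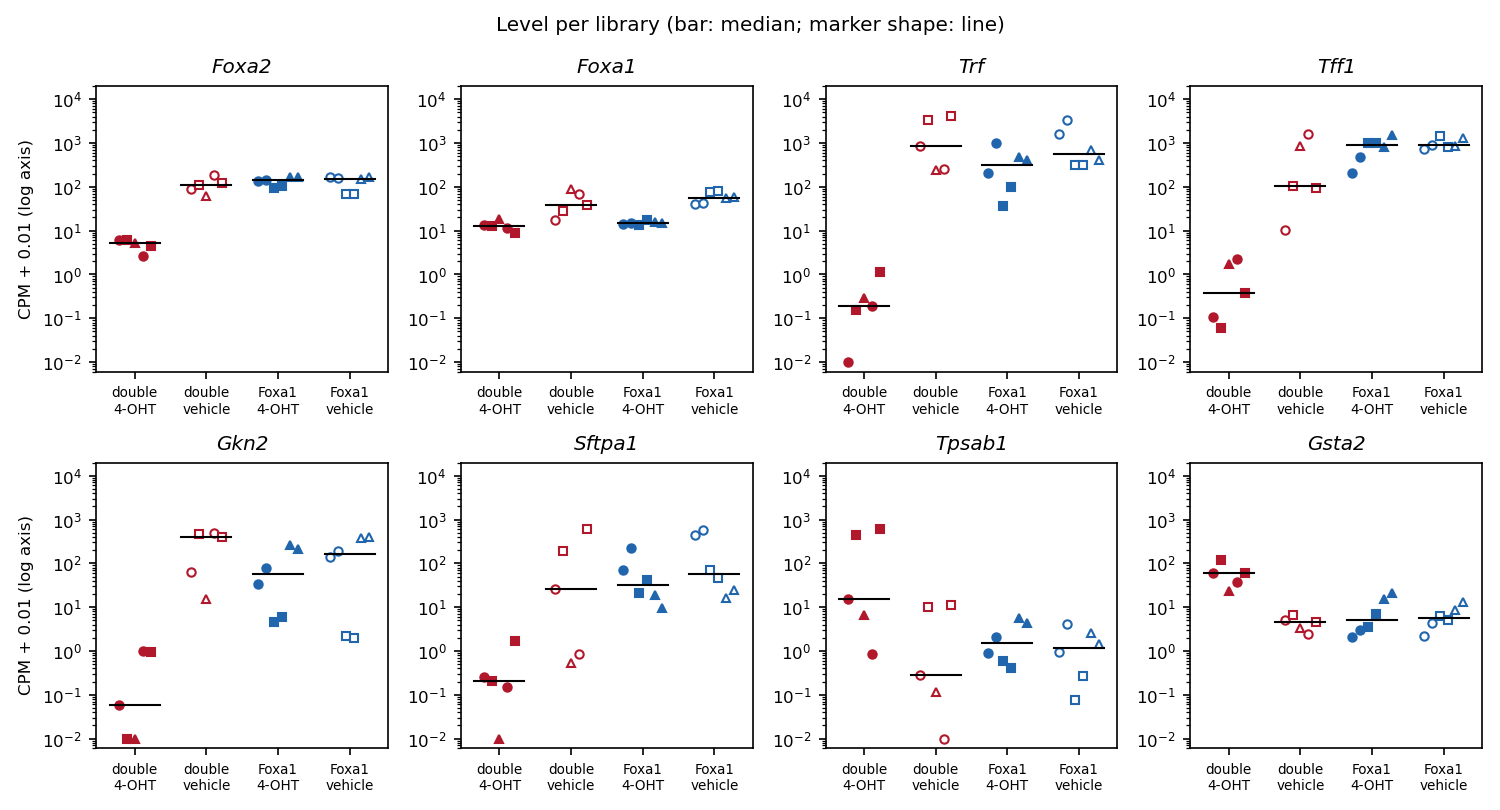
CPM in each library on a log axis (0.01 added) for Foxa2, Foxa1, Trf, Tff1, Gkn2, Sftpa1, Tpsab1 and Gsta2, with double-floxed groups in red, Foxa1-floxed groups in blue, 4-OHT filled and vehicle open. Bars are medians and marker shapes are lines. Foxa2, Trf, Tff1 and Gkn2 are lowest in double-floxed 4-OHT libraries, Foxa1 is low with 4-OHT in both genotypes, and Gsta2 is highest in double-floxed 4-OHT libraries.

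Of 26 tested alveolar type 2 genes, 5 were called lower (Sftpa1, Sftpc, Cxcl15, Pla2g1b and Hc) and 0 higher, which is 19.2%, against 0.908% of all genes. DESeq2 called 8 lower and 0 higher, and with edgeR 11 reached an unadjusted p under 0.05 in the lower and 2 in the higher direction. The list's median difference was -0.58, with a median change of -0.79 in double-floxed and -0.46 in Foxa1-floxed organoids. The difference was negative for 16 genes and positive for 10, and the list medians of the double-floxed and Foxa1-floxed lines overlapped. Sftpa1 and Sftpc encode surfactant proteins A and C, Cxcl15 a chemokine of lung epithelium, and Pla2g1b a secreted phospholipase. Sftpa1 (ENSMUSG00000021789, chromosome 14, 41131782 to 41136452) stood at 0.244, 0.198, 0, 0.137 and 1.64 CPM in double-floxed 4-OHT libraries, against 25.9, 187, 0.532, 0.858 and 609.6 CPM with vehicle. Its lowest, median and highest values in Foxa1-floxed organoids were 9.37, 31.2 and 228 CPM with 4-OHT and 15.8, 58.00 and 563 CPM with vehicle. The double-floxed vehicle libraries of lines 1292B and 1027B reached down to 0.532 and 0.858 CPM, and the 2 double-floxed groups overlapped across lines. Within lines the change was -5.58, -8.51 and -3.79 in double-floxed lines 1027B, 1027D and 1292B, and -1.71, -0.90 and -0.53 in Foxa1-floxed lines 1552A, 1552B and 1552C (difference -6.89, edgeR adjusted p = 0.012).

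Sftpc averaged 4.29 CPM in double-floxed 4-OHT and 199 CPM in double-floxed vehicle libraries, and 134 CPM with 4-OHT and 342 CPM with vehicle in Foxa1-floxed libraries (difference -4.61, edgeR adjusted p = 0.0408). Cxcl15 differed by -6.81 (edgeR adjusted p = 0.012) and Hc by -6.48 (edgeR adjusted p = 0.0116). Pla2g1b stood at 0.88, 0.792, 0.954, 1.70 and 2.53 CPM in double-floxed 4-OHT libraries, against 62.8, 56.1, 16.3, 29.8 and 29.2 CPM with vehicle, with no overlap. In Foxa1-floxed organoids its lowest, median and highest values were 7.37, 16.7 and 36.3 CPM with 4-OHT and 12.3, 20.1 and 63.4 CPM with vehicle (difference -4.13, edgeR adjusted p = 0.00808). Other surfactant and lamellar body genes did not pass. The differences were -1.42 for Sftpb (edgeR adjusted p = 0.215), -0.28 for Sftpd (0.882) and 0.11 for Abca3 (0.868). Lamp3, a lamellar body membrane protein, had the largest negative Foxa1-floxed change of the list (-2.05) beside -6.73 in double-floxed organoids (difference -4.67, edgeR adjusted p = 0.0576). No gene of an alveolar type 1 list of 16 passed with edgeR or DESeq2, and 4 reached an unadjusted p under 0.05 (3 higher, 1 lower).

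Myh6 (ENSMUSG00000040752, chromosome 14, 54941921 to 54966927) and Myh7 (ENSMUSG00000053093, chromosome 14, 54970684 to 54994626), adjacent genes for the myosin heavy chains of heart muscle, also fell in double-floxed organoids. Myh7 stood at 0.0978, 0.099, 0.28, 0 and 0.0287 CPM in double-floxed 4-OHT libraries, against 69.8, 263, 51.4, 151 and 172 CPM with vehicle. Foxa1-floxed libraries had a lowest, median and highest value of 45.1, 167 and 241 CPM with 4-OHT and 66.5, 229.8 and 289.9 CPM with vehicle. Myh6 stood at 0, 0, 0, 0 and 0.0287 CPM in double-floxed 4-OHT and 6.24, 26.4, 4.84, 15.3 and 16.5 CPM in double-floxed vehicle libraries. Both genes were near 0 in each double-floxed 4-OHT library in contrast to Foxa1-floxed organoids, where Myh6 had 6.08, 22.01 and 28.8 CPM with 4-OHT (lowest, median and highest) and 7.29, 27.3 and 35.6 CPM with vehicle. The fitted differences were -10.12 for Myh7 (edgeR adjusted p = 0.00392) and -10.09 for Myh6 (edgeR adjusted p = 0.00155). The genes are close paralogs, and reads may be split between them.

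R3hdml, Galnt5 and Onecut3 complete the 12 largest decreases. R3hdml had 2 counts in all double-floxed 4-OHT libraries and 1035 with vehicle (ratio 95% exact counting interval 0.000218 to 0.00651), and its lowest, median and highest values in Foxa1-floxed organoids were 1.57, 10.6 and 13.2 CPM with 4-OHT and 1.85, 7.74 and 11.8 CPM with vehicle. Galnt5, an enzyme that begins O-linked glycosylation of mucin type, had 0 counts with 4-OHT and 1.23, 0.438, 2.93, 1.64 and 0.0442 CPM with vehicle in double-floxed libraries (at least 47.6-fold lower). It stood at 2.68, 7.17 and 9.78 CPM with 4-OHT and 7.58, 11.4 and 15.96 CPM with vehicle in Foxa1-floxed organoids. The homeobox gene Onecut3 measured 0, 0, 0.393, 0.0458 and 0.201 CPM in double-floxed 4-OHT libraries against 3.68, 6.13, 4.74, 2.79 and 13.3 CPM with vehicle. Its Foxa1-floxed values were 2.44, 5.46 and 9.35 CPM with 4-OHT and 0.293, 1.60 and 9.92 CPM with vehicle. Its Foxa1-floxed change of 3.02 in 1552A, -0.23 in 1552B and 1.68 in 1552C enters the difference. The differences were -8.97 for R3hdml, -7.80 for Galnt5 and -6.87 for Onecut3 (edgeR adjusted p = 0.012, 0.048 and 0.0439).

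Of 24 transcription factors of endodermal epithelia, 2 were called lower, Foxa2 itself and Creb3l1 (8.33%, against 0.908% of all genes), and 0 higher. Foxa2 is the floxed target. DESeq2 called 6 lower and 1 higher, and with edgeR 7 reached an unadjusted p under 0.05 in the lower and 1 in the higher direction. Creb3l1, a factor anchored in the endoplasmic reticulum that serves secretory cells, stood at 0.342, 0.297, 0.393, 6.41 and 2.99 CPM in double-floxed 4-OHT libraries, against 115, 147, 132, 130.0 and 90.4 CPM with vehicle. In Foxa1-floxed organoids its lowest, median and highest values were 4.47, 95.6 and 196 CPM with 4-OHT and 20.6, 156 and 211 CPM with vehicle (difference -5.21, edgeR adjusted p = 0.0211). The double-floxed groups did not overlap. Foxp2, a forkhead factor of the embryonic lung tip, was called lower in a list of 15 (6.67%, against 0.908% of all genes). It stood at 0.293, 0, 0.0561, 0.0916 and 0.776 CPM in double-floxed 4-OHT libraries against 21.7, 26.6, 0.213, 5.26 and 24.4 CPM with vehicle (difference -5.39, edgeR adjusted p = 0.00808). Its Foxa1-floxed values were 2.06, 2.94 and 44.4 CPM with 4-OHT and 1.76, 4.00 and 61.9 CPM with vehicle. Hnf4a, a regulator of liver and gut epithelium, averaged 77.6 CPM in double-floxed 4-OHT and 335 CPM in double-floxed vehicle libraries, against 281 CPM with 4-OHT and 288 CPM with vehicle in Foxa1-floxed libraries. Its difference did not pass (-2.09, edgeR adjusted p = 0.237), and neither did that of Cebpa (-1.26, 0.103).

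Of 16 airway secretory genes, Scgb3a1, a secretoglobin, and Kcne3, a potassium channel subunit, were called lower (12.5%, against 0.908% of all genes). Scgb3a1 had 0 counts in double-floxed 4-OHT libraries and 5.28, 0.274, 1.06, 0.787 and 0.928 CPM with vehicle (at least 59.8-fold lower), and 0.149, 1.82 and 8.40 CPM with 4-OHT and 0.0384, 0.458 and 2.62 CPM with vehicle in Foxa1-floxed organoids (lowest, median and highest). Kcne3 stood at 5.96, 1.83, 3.87, 6.14 and 1.01 CPM in double-floxed 4-OHT libraries, against 99.5, 8.16, 39.9, 49.8 and 10.8 CPM with vehicle. Its lowest, median and highest values in Foxa1-floxed organoids were 6.43, 16.2 and 38.5 CPM with 4-OHT and 3.50, 18.3 and 40.7 CPM with vehicle. The differences were -10.28 for Scgb3a1 (edgeR adjusted p = 0.0321) and -3.44 for Kcne3 (edgeR adjusted p = 0.0333). DESeq2 called 4 lower and 1 higher. The list's median difference was -1.95, and -1.39 with genes that had a group at 0 counts set at their bound. DESeq2 called 5 of 18 intestinal genes lower, against 3.66% of all genes, and 0 higher. With edgeR 1 of the 18 was called lower (5.56%, against 0.908% of all genes). This was Lgals4, which encodes a galectin (1.32, 7.52, 111, 14.7 and 5.29 CPM in double-floxed 4-OHT libraries against 25.6, 211, 747, 157 and 11.9 CPM with vehicle; difference -3.66, edgeR adjusted p = 0.0176). Lgals4 had 65.8, 618 and 3801 CPM with 4-OHT and 26.4, 617 and 4396 CPM with vehicle in Foxa1-floxed organoids (lowest, median and highest), with line 1552A far below the other lines.

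Single decreases also stood in lists of wider cell functions. Icam1, an adhesion receptor for leukocytes, stood at 48.2, 22.9, 41.2, 100.02 and 21.2 CPM in double-floxed 4-OHT libraries, against 153, 214, 268, 452 and 212 CPM with vehicle, without overlap. Its lowest, median and highest values in Foxa1-floxed organoids were 73.2, 241 and 278 CPM with 4-OHT and 77.3, 259.6 and 345 CPM with vehicle (difference -2.52, edgeR adjusted p = 0.0148). Icam1 was 1 of 21 NF-kB and chemokine genes called, as lower (4.76%, against 0.908% of all genes). Slc16a3, a lactate exporter, was 1 of 22 hypoxia and glycolysis genes called, as lower (4.55%, against 0.908% of all genes). The difference for Slc16a3 was -1.46 (edgeR adjusted p = 0.0391). It stood at 3.57, 6.19, 25.9, 162 and 54.4 CPM in double-floxed 4-OHT libraries, against 260.3, 111, 115, 247 and 182 CPM with vehicle. Foxa1-floxed organoids had 48.96, 103 and 275 CPM with 4-OHT and 40.4, 203 and 401 CPM with vehicle (lowest, median and highest), and the double-floxed groups overlapped. Without double-floxed 4-OHT replicate 4 or 5 or Foxa1-floxed 4-OHT replicate 2, the difference for Slc16a3 was -2.77, -2.23 or -0.97, and none passed. Cyp2s1, a cytochrome P450, fell in double-floxed organoids to 0.538, 0.099, 5.27, 29.1 and 3.08 CPM with 4-OHT, against 163, 139, 80.3, 114 and 70.7 CPM with vehicle (difference -3.65, edgeR adjusted p = 0.0435). In Foxa1-floxed organoids Cyp2s1 had 43.1, 123 and 354 CPM with 4-OHT and 40.2, 218 and 575 CPM with vehicle (lowest, median and highest).

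On the higher side, Tpsab1, a tryptase known from mast cells, had the largest difference of the 12 named (5.18, edgeR adjusted p = 0.0225). Tpsab1 (ENSMUSG00000024173, chromosome 17, 25343245 to 25345562) stood at 15.4, 453, 6.51, 0.825 and 600.1 CPM in double-floxed 4-OHT libraries, against 0.267, 9.97, 0.106, 0 and 11.4 CPM with vehicle. Its lowest, median and highest values in Foxa1-floxed organoids were 0.391, 1.49 and 5.64 CPM with 4-OHT and 0.0648, 1.17 and 4.06 CPM with vehicle. Line 1027D reached far higher levels than the other double-floxed lines, while the per-line changes were close, at 5.72 in 1027B, 5.66 in 1027D and 5.48 in 1292B (log2). Among defining mast cell markers, Fcer1a and Ms4a2 were at 0 counts in 22 of 22 libraries and Cpa3 in 20 of 22. A count of 0 allows up to 0.0904 to 0.164 CPM, depending on the library's depth, which covers counting error only. Tpsab1 has close paralogs, and reads may be split with them. Kit, another mast cell marker, was at 0 in 12. Mcpt1, Mcpt2 and Mcpt8, mast cell-type proteases, and Hdc, the enzyme that makes histamine, were above 0 in all 22. The lowest, median and highest values of Mcpt2 were 49.5, 227 and 760.0 CPM with 4-OHT and 52.1, 148 and 341 CPM with vehicle in double-floxed organoids. In Foxa1-floxed organoids they were 5.66, 17.1 and 96.2 CPM with 4-OHT and 4.54, 13.8 and 29.2 CPM with vehicle. The difference did not pass for Mcpt1 (0.87, edgeR adjusted p = 0.538), Mcpt2 (0.08, 0.973), Mcpt8 (-1.60, 0.189) or Hdc (0.85, 0.582). Of 14 tested mast cell protease and placental-type genes, 8 rose in double-floxed organoids, against 6.61% of all genes, and the list's median changes were 2.88 in double-floxed and 1.21 in Foxa1-floxed organoids. For the difference Tpsab1 was the 1 call (7.14%, against 0.383% of all genes), and DESeq2 called 3 higher and 1 lower. The part of these genes' levels in the Tpsab1 difference was not tested.

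Squamous and basal genes rose in double-floxed organoids for 9 of 23 tested, against 6.61% of all genes. For the difference, 2 were called higher (Sfn and Lor, 8.7%, against 0.383% of all genes) and 0 lower, and DESeq2 called 6 higher and 1 lower. With edgeR, 11 reached an unadjusted p under 0.05 in the higher and 2 in the lower direction. The list's median change was 1.84 in double-floxed and 0.43 in Foxa1-floxed organoids, with a median difference of 1.41. Sfn also belongs to a list of transitional alveolar genes, of which 18 were tested. There Sfn was the 1 call (5.56% higher, against 0.383% of all genes), and 7 genes rose in double-floxed organoids. For that list DESeq2 called 7 higher and 1 lower, against 3.12% and 3.66% of all genes, with a median difference of 0.60. Sfn, which encodes 14-3-3 sigma of stratified epithelia, stood at 61.8, 177, 1039.7, 469 and 101 CPM in double-floxed 4-OHT libraries, against 33.5, 31.2, 348, 116 and 24.4 CPM with vehicle. In Foxa1-floxed organoids its lowest, median and highest values were 66.9, 110.0 and 137 CPM with 4-OHT and 49.3, 77.1 and 112 CPM with vehicle. In line 1027B the 4-OHT library of replicate 1 lay below the vehicle library of replicate 4, and the Foxa1-floxed groups overlapped (difference 1.41, edgeR adjusted p = 0.0309). Without double-floxed 4-OHT replicate 4 the difference for Sfn was 0.71 (edgeR adjusted p = 0.643). Lor, which encodes loricrin of the cornified envelope, stood at 5.28, 0.247, 40.6, 0.275 and 3.33 CPM in double-floxed 4-OHT libraries, against 0.16, 0.0548, 0.905, 0 and 0.0883 CPM with vehicle (difference 3.74, edgeR adjusted p = 0.0378). Its change in Foxa1-floxed lines was 1.58 ± 0.83 (log2, SD, n = 3 lines), also positive in each line. Basal keratins and Trp63 did not pass, with Krt14 at 2.86 (edgeR adjusted p = 0.0654), Krt5 at 0.13 (0.971) and Trp63 at -1.05 (0.718).

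Gsta2 (ENSMUSG00000057933, chromosome 9, 78331018 to 78355788), a glutathione transferase, stood at 60.9, 116, 22.8, 37.5 and 60.7 CPM in double-floxed 4-OHT libraries, against 5.07, 6.63, 3.41, 2.47 and 4.55 CPM with vehicle. Foxa1-floxed organoids had a lowest, median and highest value of 2.08, 5.20 and 21.1 CPM with 4-OHT and 2.23, 5.73 and 12.9 CPM with vehicle. Every double-floxed 4-OHT library lay above every other library (difference 3.40, edgeR adjusted p = 0.0197). Cryab (ENSMUSG00000032060, chromosome 9, 50751325 to 50756636), a small heat shock protein, stood at 76.3, 31.2, 117, 62.4 and 68.5 CPM in double-floxed 4-OHT libraries, against 11.7, 3.72, 22.4, 2.75 and 4.33 CPM with vehicle. In Foxa1-floxed organoids Cryab had 3.65, 5.26 and 20.6 CPM with 4-OHT and 3.26, 5.51 and 14.1 CPM with vehicle (lowest, median and highest). Again each double-floxed 4-OHT library was the higher (difference 2.98, edgeR adjusted p = 0.0211). Plet1, a surface protein first described in placenta, stood at 58.7, 56.7, 175, 237 and 189 CPM in double-floxed 4-OHT libraries, against 5.49, 16.6, 27.5, 15.3 and 35.4 CPM with vehicle, and at 3.22 CPM or less in every Foxa1-floxed library (difference 2.69, edgeR adjusted p = 0.0295). Gsta2 belongs to a family of near-identical copies, so its reads may be shared.

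The remaining large increases were less even across libraries. Ces1e, a carboxylesterase with close paralogs, reached 115, 1.14, 2.58, 1.33 and 1.12 CPM in double-floxed 4-OHT libraries, against 6.08, 0, 0.532, 0.107 and 0.0442 CPM with vehicle, so that replicate 1 of line 1027B stood far above the others. Without that 4-OHT library the difference for Ces1e was 1.58 (edgeR adjusted p = 0.559). Lypd5, a lipid-anchored surface protein, stood at 3.03, 8.41, 71.5, 19.98 and 36.4 CPM in double-floxed 4-OHT libraries, against 0.427, 0.274, 3.99, 0.215 and 0.53 CPM with vehicle, and at 1.54 CPM or less in every Foxa1-floxed library. Cdh13, the lipid-anchored T-cadherin, stood at 0, 29.99, 1.07, 0.0458 and 32.9 CPM in double-floxed 4-OHT libraries, against 0, 3.78, 0, 0 and 4.64 CPM with vehicle. Among double-floxed lines Cdh13 was thus highest in 1027D, while Foxa1-floxed organoids held 28.6, 49.9 and 118 CPM with 4-OHT and 34.8, 50.4 and 85.1 CPM with vehicle (lowest, median and highest). Rasgrf2, an activator of Ras, stood at 0, 0.297, 2.92, 1.10 and 4.45 CPM in double-floxed 4-OHT libraries, against 0, 0, 0.319, 0.0358 and 0.53 CPM with vehicle. All of these lay below the libraries of Foxa1-floxed lines 1552B and 1552C, whose group had 0, 9.10 and 18.4 CPM with 4-OHT and 0, 9.51 and 21.9 CPM with vehicle (lowest, median and highest). Ttc7b, a partner of phosphatidylinositol 4-kinase, stood at 7.33, 38.9, 14.6, 2.52 and 34.3 CPM in double-floxed 4-OHT libraries, against 0, 1.97, 1.33, 0.358 and 1.55 CPM with vehicle, and Foxa1-floxed organoids had 2.61, 5.16 and 13.2 CPM with 4-OHT and 0.842, 3.56 and 12.4 CPM with vehicle (lowest, median and highest). The differences were 4.77 for Lypd5, 3.92 for Ces1e, 3.61 for Rasgrf2, 3.55 for Ttc7b and 3.01 for Cdh13 (edgeR adjusted p from 0.0193 for Ttc7b to 0.0462 for Cdh13). Without line 1027D the difference for Cdh13 was 6.84 (edgeR adjusted p = 0.0903). Olfml2a, an extracellular matrix protein (2.55, edgeR adjusted p = 0.0486), and Gm13398 (2.45, 0.0391) complete the 12.

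Of 15 mesenchymal transition genes, Col6a1, a chain of collagen VI, was called higher (6.67%, against 0.383% of all genes). It stood at 14.5, 17.8, 0.112, 3.21 and 11.3 CPM in double-floxed 4-OHT libraries, against 0, 0, 0, 0 and 0.177 CPM with vehicle, and its lowest, median and highest values in Foxa1-floxed organoids were 0, 0.0605 and 2.47 CPM with 4-OHT and 0, 0.0384 and 1.01 CPM with vehicle (difference 6.91, edgeR adjusted p = 0.0235). Without double-floxed vehicle replicate 5 the difference for Col6a1 was 10.49. The list's median difference was -0.05. Of 24 epithelial junction genes, Pard6b, a polarity protein, was called higher (4.17%, against 0.383% of all genes). It stood at 108, 158, 384, 280.1 and 267 CPM in double-floxed 4-OHT libraries, against 66.3, 116, 184, 104 and 122 CPM with vehicle, and at 84.2, 95.3 and 119 CPM with 4-OHT and 76.1, 100.2 and 110.4 CPM with vehicle in Foxa1-floxed organoids (lowest, median and highest; difference 1.00, edgeR adjusted p = 0.0288). The tumour epithelium markers Krt18 and Krt19 had positive differences that did not pass (0.76, edgeR adjusted p = 0.0576, and 0.70, 0.159). All 6 markers of that list had positive differences, with a median of 0.49, and edgeR called 0. An unadjusted p under 0.05 was reached by 3, all higher, and DESeq2 called 3 higher and 0 lower (against 3.12% and 3.66% of all genes).

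Interferon response genes rose in double-floxed organoids for 9 of 26 tested, against 6.61% of all genes. For the difference, 0 of 26 were called with edgeR, 2 reached an unadjusted p under 0.05, both higher, against 8.64% of all genes, and DESeq2 called 1. Their median change was 2.42 in double-floxed and 1.22 in Foxa1-floxed organoids, and the difference was positive for 25 of the 26. Per line, the list median was 0.67 in 1027B, 1.93 in 1027D and 5.12 in 1292B, against 1.25 in 1552A, 1.01 in 1552B and 0.73 in 1552C. The double-floxed lines thus spread more among themselves than the genotypes differed. Oas3, an antiviral enzyme, had a fitted log2 change of 3.13 in double-floxed and 3.04 in Foxa1-floxed organoids (difference 0.09, edgeR adjusted p = 0.989), and Rsad2 had 5.79 in double-floxed and 0.84 in Foxa1-floxed organoids (difference 4.95, edgeR adjusted p = 0.0987). All 15 antigen presentation genes had positive differences, with 0 called with edgeR, 4 at an unadjusted p under 0.05 and 1 called by DESeq2.

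**Figure D4:**
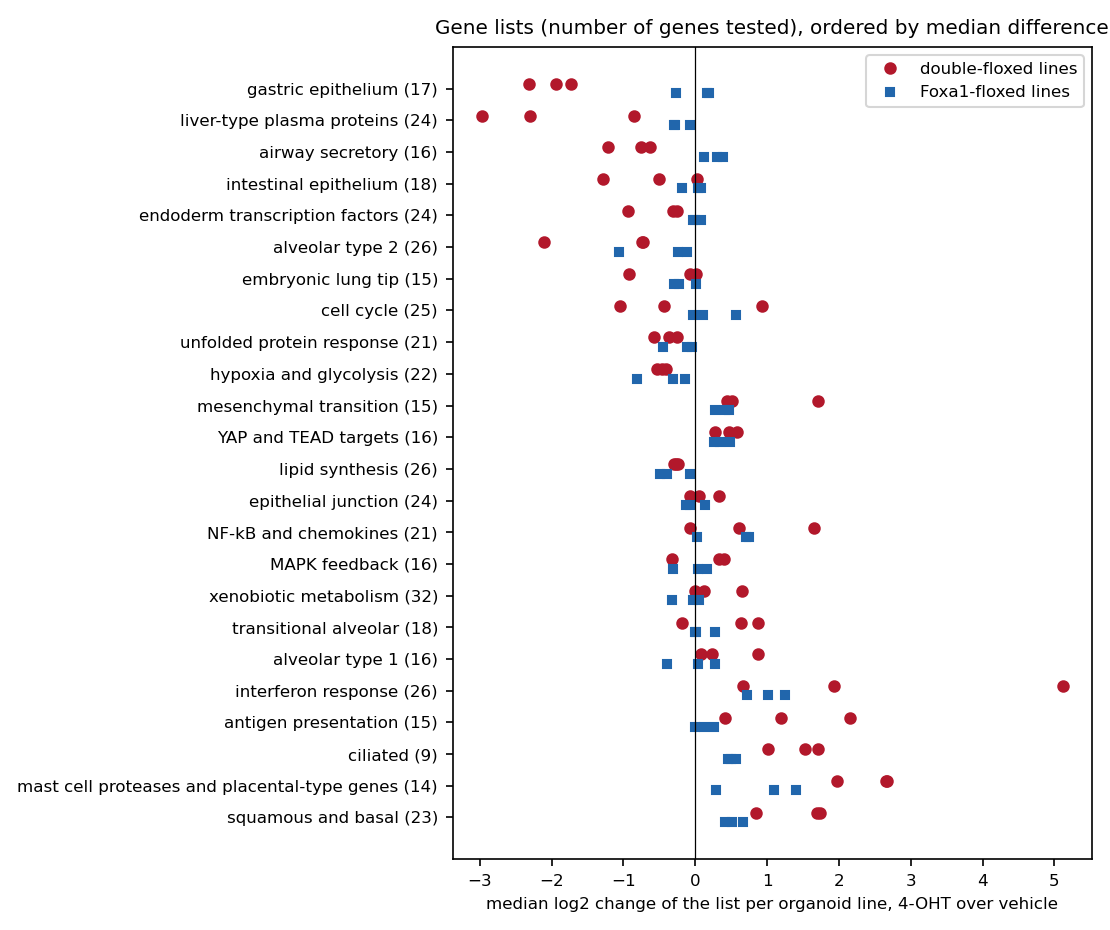
Median log2 change of each gene list in each of the 3 double-floxed lines (red circles) and 3 Foxa1-floxed lines (blue squares), for lists with at least 9 genes tested, ordered by the median difference. Gastric, liver-type, airway secretory and endoderm transcription factor lists have all red points below all blue points. Squamous, ciliated, antigen presentation, and mast cell protease and placental-type lists have all red points above. The interferon list has positive medians in all 6 lines with wide spread among the double-floxed lines.

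No gene of the cell cycle list (25 tested) passed with edgeR or DESeq2, and 0 reached an unadjusted p under 0.05. The list's median change ran from -1.05 in line 1292B to 0.93 in line 1027D among double-floxed lines. The same held for 21 unfolded protein response genes and 9 ciliated genes, with 0 called by either tool and 0 at an unadjusted p under 0.05. The difference was negative for 22 and positive for 3 cell cycle genes. It was negative for 17 and positive for 4 unfolded protein response genes, and negative for 2 and positive for 7 ciliated genes. Of 26 lipid synthesis genes, edgeR called 0, 3 reached an unadjusted p under 0.05 and DESeq2 called 1. Of 16 MAPK feedback genes edgeR called 0, 6 reached an unadjusted p under 0.05 and DESeq2 called 2, and of 16 YAP and TEAD targets edgeR called 0, 4 reached it and DESeq2 called 2. Over all genes, 17.5% reached an unadjusted p under 0.05 and DESeq2 called 6.79%.

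Libraries outside the comparison were set beside it. In 2 Foxa2-floxed lines (1267B and 1526C), 112 of the 159 lower genes had a negative change in both lines and 8 a positive one in both, against 27.1% of all genes negative in both. The median change of the 159 was -0.64 in 1267B and -0.62 in 1526C, against -3.18 in double-floxed organoids. Of the 67 higher genes, 50 had a positive change in both lines and 3 a negative one, against 31.4% of all genes. Single genes differed in this respect. The log2 change in lines 1267B and 1526C was -5.21 and -4.39 for Itih2, -5.19 and -3.15 for Myh7, and -3.14 and -2.52 for Tff1. It was 1.38 and -1.09 for Gkn2, and -0.79 and 0.16 for Rasgrf2. No test of these against the double-floxed change was made.

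A separate culture of the double-floxed line 1027B with a scrambled hairpin gave 2 libraries with 4-OHT and 2 with vehicle. Of the 159 lower genes, 134 had both 4-OHT libraries below both vehicle libraries and 1 the reverse, against 27% of all genes. Of the 67 higher genes, 54 had both above and 1 the reverse, against 27.7% of all genes. The line is the same as in the comparison, so this is a repeat within a line. There the log2 change was -10.04 for Tff1, -6.34 for Trf, -8.32 for Gkn2 and 3.64 for Gsta2, with the treatments apart. The treatments overlapped for Lypd5 (0.84), and Cdh13 had 0 CPM in all 4 libraries.

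Promoter windows were searched for 3 forkhead-type words on either strand (the word TGTTTAC, the word TATTTAC and the word TGTTTGC). The word TATTTAC and the word TGTTTGC can each overlap their own reverse complement. RefSeq windows were at hand for 112 of the 159 lower, 50 of the 67 higher and 11543 of all tested genes. At least 1 word was found in 9.82% of the lower, 4% of the higher and 6.83% of all tested genes' windows, and in 9.73% of the 32851 windows in the table. TGTTTGC was found in 8 windows of lower genes (7.14%) and in 0 of higher genes, against 3.29% of all tested genes and 4.3% of the 32851 windows. Among the named genes called, Gkn2, Gkn3, Scgb3a1 and Col6a1 held a word. A match describes the letters in the window and is not evidence of binding. The windows of Scgb3a1, which was lower, and Col6a1, which was higher, are given in the same form, with the word (or its reverse complement) in capitals (Scgb3a1 chr11:49663345-49663594, plus strand; Col6a1 chr10:76726045-76726294, minus strand).
Scgb3a1: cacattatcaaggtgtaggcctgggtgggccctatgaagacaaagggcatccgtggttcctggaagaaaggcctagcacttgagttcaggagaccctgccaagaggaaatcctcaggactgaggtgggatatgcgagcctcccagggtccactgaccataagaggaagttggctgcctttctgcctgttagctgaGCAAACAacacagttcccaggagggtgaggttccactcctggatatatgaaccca
Col6a1: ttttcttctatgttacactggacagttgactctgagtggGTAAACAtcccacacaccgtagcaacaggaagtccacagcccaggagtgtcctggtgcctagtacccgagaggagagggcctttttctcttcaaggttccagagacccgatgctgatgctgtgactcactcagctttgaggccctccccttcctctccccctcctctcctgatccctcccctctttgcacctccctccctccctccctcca
The word began 55 bases before the start of Scgb3a1 and 211 bases before that of Col6a1.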

How the data were processed

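The values used are the raw counts per gene that the authors deposited. The submitters' processing notes name STAR 2.7.6a, featureCounts 1.5.1, DESeq2 and GRCm38, without roles. The sources used here give neither a strand setting nor an annotation release. The 2 tables were joined on the 55406 gene IDs in common, and symbols came from GENCODE M21 (99.5% of IDs). Libraries hold 18.2 to 33.2 M (mega) counts. Counts were summed per line and treatment (12 sums), filtered with filterByExpr, scaled by TMM and tested with the quasi-likelihood test of edgeR 4.0.16 (R 4.3.3, line as block, Benjamini-Hochberg over 17506 genes). The same line deviated together under both treatments (correlation of deviations 0.700 to 0.882), so line is a pairing by culture. Line changes use log2 CPM with a prior count of 2. The code was tested on simulated data.

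Members and lists were chosen with earlier results of these data known. Named genes are the 12 largest called differences per direction (mean log2 CPM of at least 2, lines not overlapping), the Foxa factors and Nkx2-1, and up to 3 genes per list by smallest p. Other called list members, Muc5ac, Anxa10, Psca, Capn9, Sftpb, Sftpd, Abca3, Lamp3, Hnf4a, Cebpa, Krt5, Trp63, Oas3, Mcpt1, Mcpt2, Mcpt8 and Hdc were chosen after their values were seen. Alternatives covered scaling, filter, DESeq2 1.42.0, blocks, runs and left-out libraries or lines. Intervals and floors cover counting error only. P-values measure the spread between lines, which the labels do not tie to separate mice.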

Additional observations from a re-analysis of the deposited data

Results flagged for a closer look

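Of 110 groups of libraries examined for a value far from the rest of its group, 3 held one, and chance flags about 1 in 20 groups. Ces1e stood at 115 CPM in double-floxed 4-OHT replicate 1, against 1.12 to 2.58 CPM in the other 4 libraries of that group. Lypd5 stood at 3.99 CPM in double-floxed vehicle replicate 3, against 0.215 to 0.53 CPM in the other 4. Myh6 stood at 0.0287 CPM in double-floxed 4-OHT replicate 5, which is 1 count, and at 0 in the other 4.

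The log2 change with 4-OHT differed between double-floxed and Foxa1-floxed organoids, by the edgeR test of the difference, for these named genes. The difference was -10.6 for Ttr, -10.5 for Itih2, -10.4 for Trf, -10.1 for Myh7 and -10.1 for Myh6. It was -9.84 for Gkn3, -8.99 for Gkn2, -8.97 for R3hdml, -8.78 for Tff1, -7.80 for Galnt5, -6.89 for Sftpa1, -6.87 for Onecut3 and -4.54 for Foxa2. On the higher side it was 5.18 for Tpsab1, 4.77 for Lypd5, 3.92 for Ces1e, 3.74 for Lor, 3.61 for Rasgrf2, 3.55 for Ttc7b and 3.40 for Gsta2. It was 3.01 for Cdh13, 2.98 for Cryab, 2.69 for Plet1, 2.55 for Olfml2a and 2.45 for Gm13398.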

How the results depend on the processing

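The count of 226 differences (67 higher, 159 lower) depended on the fit. It was 220 with RLE scaling, 650 with no filter on low counts (255 higher, 395 lower), 1188 with DESeq2 (547 higher, 641 lower) and 293 with the Foxa2-floxed lines in the fit. Single libraries gave 599 with the replicate block of line (237 higher, 362 lower) and 1376 with a block of line and run (645 higher, 731 lower). Both of these fits count repeat libraries of a line as separate units, although the genotype differs only between lines. With no replicate block, 0 passed (0 higher, 0 lower) and 495 had an unadjusted p under 0.05. Either run of the double-floxed libraries alone, chosen after seeing the data, gave 118, as 25 higher and 93 lower for run 17699 and 30 higher and 88 lower for run 17992.

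Leaving out 1 library or line gave 36 to 301 calls (4 to 111 higher, 28 to 206 lower). The count was 124 without line 1027B, 51 without 1552A, 41 without 1552B and 36 without 1552C. It was 127, 111 and 99 without double-floxed 4-OHT replicates 1, 4 and 5, 81 without double-floxed vehicle replicate 4 and 76 without Foxa1-floxed 4-OHT replicate 2. The direction of the 226, where tested, was kept in each alternative except for 1 gene without double-floxed 4-OHT replicate 1. DESeq2 called all 39 named calls.

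Among named genes that did not pass, the difference for Foxa1 turned positive, at 0.14 with single libraries and the line block, 0.24 with line and run and 0.67 with run 17699 alone. Fasn came to 0.043 with run 17992 alone. Over left-out libraries or lines, the difference for Foxa1 ran from -0.28 to 0.42, for Nkx2-1 from -0.072 to 0.42, for Lyz2 from -3.96 to 0.43, for Fosl1 from -0.28 to 1.78 and for Atf3 from -0.73 to 1.97. The cause was not tested. At this depth a count of 0 in 1 library allows 0.0904 to 0.164 CPM.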

Other observations

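Called genes outside the lists were looked through, and those below were chosen after their values were seen. On the lower side, Selenop, a plasma carrier of selenium, averaged 32.9 CPM in double-floxed 4-OHT and 254 CPM in double-floxed vehicle libraries. It averaged 138 CPM with 4-OHT and 149.8 CPM with vehicle in Foxa1-floxed libraries (log2 difference -2.99, edgeR adjusted p = 0.0104). The receptors Lifr, for leukaemia inhibitory factor, and Fgfr3, for fibroblast growth factors, differed by -4.69 (edgeR adjusted p = 0.0321) and -2.89 (0.014). Cftr, the chloride channel mutated in cystic fibrosis, had a double-floxed change of -3.21 and a Foxa1-floxed change of 1.25 (difference -4.45, edgeR adjusted p = 0.0225). In the scrambled hairpin culture of line 1027B the change of Cftr was 0.85.

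Stra6, a membrane receptor for the retinol carrier, was the 1 lower gene whose double-floxed change did not pass. It averaged 60.8 CPM in double-floxed 4-OHT and 56.6 CPM in double-floxed vehicle libraries, and 149 CPM with 4-OHT and 28.7 CPM with vehicle in Foxa1-floxed libraries (difference -2.72, edgeR adjusted p = 0.031). On the higher side, the lysosomal protease Ctsd averaged 1141 CPM in double-floxed 4-OHT and 420.3 CPM in double-floxed vehicle libraries. It averaged 409.7 CPM with 4-OHT and 504 CPM with vehicle in Foxa1-floxed libraries (difference 1.75, edgeR adjusted p = 0.0357). Notch3, a Notch receptor, differed by 2.35 (edgeR adjusted p = 0.0463).

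Of 17462 pairs of tested genes next to each other on a chromosome, 10 were called in the same direction. Over all genes, 0.908% were called lower and 0.383% higher, and the number of pairs these shares would give was not worked out. The 10 pairs include Myh6 with Myh7 (3757 bases apart), Gkn2 with Gkn3 (3759) and Tff1 with Tmprss3 (13988). Some of the others overlap or nearly touch, such as Erich2os with Erich2 (gap of -380 bases) and Cxcl15 with Gm43085 (194). Their reads may be shared. The strand setting of the counting is not known here.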
